A study of Bos taurus with 8 samples.

Results

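Interferon-stimulated genes were followed in lung RNA of newborn Holstein calves. The set was a list of 58 gene symbols, which stand for 57 genes because DDX58 is the older symbol of RIGI. A member was taken from the array when a probe's transcript accession matched its symbol, which held for 36 genes, and was measured when the scanner software marked a probe well above background on 4 or more of the 8 arrays, which held for 35. The brightest such probe represented the gene, and the 35 members are part of 9867 genes measured in the same way. The other 21 genes, among them IFIT1, IFIT2, BST2, IFI44, RIGI, IFIH1, STAT2 and IRF1, had no matched probe and were not analysed here, and OAS1X was below the filter.

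The study compared 4 cloned calves that were lost to respiratory failure within 4 days of birth with 4 normal healthy calves killed at 4 days. All 8 samples are lungs of separate animals labelled with an age of 4 days, but the sources used here give neither the clones' exact ages at death nor the donor cells they came from. Total RNA was labelled with the dye Cy3 and hybridised to 1-colour Agilent bovine arrays, 1 array per animal. All clones were on 1 slide and all normal calves on another, so slide and group cannot be told apart.

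Interferons are cytokines, and cells release those of type I on sensing viral or other foreign nucleic acid. Type I interferons bind the receptor pair IFNAR1 and IFNAR2, type II interferon binds IFNGR1 and IFNGR2, and both act through JAK kinases and STAT factors to switch on a large set of target genes. The targets include proteins that block viral replication, the ubiquitin-like modifier ISG15 with its enzymes, sensors and transcription factors that renew the response, and the immunoproteasome and peptide transporters of antigen presentation.

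Values are log2 signals relative to the 75th percentile of the same array, so 0 is that percentile and 1 unit is a doubling. Differences are clone minus normal, with the standard error (SE) from limma over 4 animals per group. Adjusted p-values are Benjamini-Hochberg values across the 35636 probes that were kept. The share of spots well above background ran from 78.8% to 80.6% in clones and from 80.4% to 83.5% in normal calves. Across all kept probes the normal arrays correlated at 0.984 to 0.989 with each other. Clones 2 and 4 correlated at 0.988, whereas all other pairs of clones lay between 0.907 and 0.931. Among the clones, clones 1 and 3 thus stood apart from the others and from each other. With the normal calves, clones 1 to 4 correlated at 0.9407 to 0.9534, 0.9578 to 0.9668, 0.9345 to 0.9378 and 0.9503 to 0.9625. Each of the 10 spike-ins had a higher mean in clones, with a median difference of 0.67, so a shift shared by all lung RNA is not measured here. The lung markers SFTPC, SFTPB, SFTPA1 and AGER, of surfactant and alveolar epithelium, were well above background in every animal.

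Several interferon-stimulated genes had higher mean signals in the cloned calves, led by IFI27, ISG15, MX1 and OAS1Y with differences of 2.14, 2.07, 1.71 and 1.48, while IFIT3 had a mean lower by 1.83 and IFI35 one lower by 0.78. No member passed the adjusted threshold of 0.05 in limma, with adjusted p-values from 0.212 to 0.986, against 18 of all genes, or 0.182% (0.0405% higher and 0.142% lower in clones). At an unadjusted p under 0.05 in the same limma fit there were 7 members with a higher mean in clones, against 6.37% of all genes, and 2 with a lower mean, against 6.58%. Both directions together made 13.0% of all genes. The difference was positive in 24 of the 35 members and negative in 11, with a median of 0.36, where all genes split into 4775 positive and 5092 negative with a median of -0.02. A difference of more than 2-fold was seen in 8 members, but the share over all genes was not computed, so this count describes the members only. In 3 members, IFI27, IRF7 and EIF2AK2, every clone lay above every normal calf, against 5.05% of all genes, and in 1, IFIT3, every clone lay below, against 4.78%.

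The count of 0 depended on the clones that stood apart. With clones 1 and 3 left out together, 8 members were called higher and 3 lower at an adjusted p under 0.05 in limma. These are 31.4% of the members, near the 32.5% of all genes called in that fit. That comparison rests on clones 2 and 4 alone, the pair that correlated best, and was chosen after the data were seen. Array weights, which count divergent arrays for less, called 9 members higher and 3 lower, or 34.3% against 31.9% of all genes. Without clone 1 alone, IFIT5 was the 1 member called, or 2.86% against 7.15% of all genes. With both directions together, the shares of members called in these fits were thus near or below those over the array. With array weights, 9 of the 35 members were higher, against 15.6% of all genes, and 3 lower, against 16.4%. Without clones 1 and 3, 8 were higher, against 16.2%, and 3 lower, against 16.3%. In both of these fits the share of members was above that of all genes for higher calls and below it for lower calls. This contrast between directions was not tested.

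**Figure D1:**
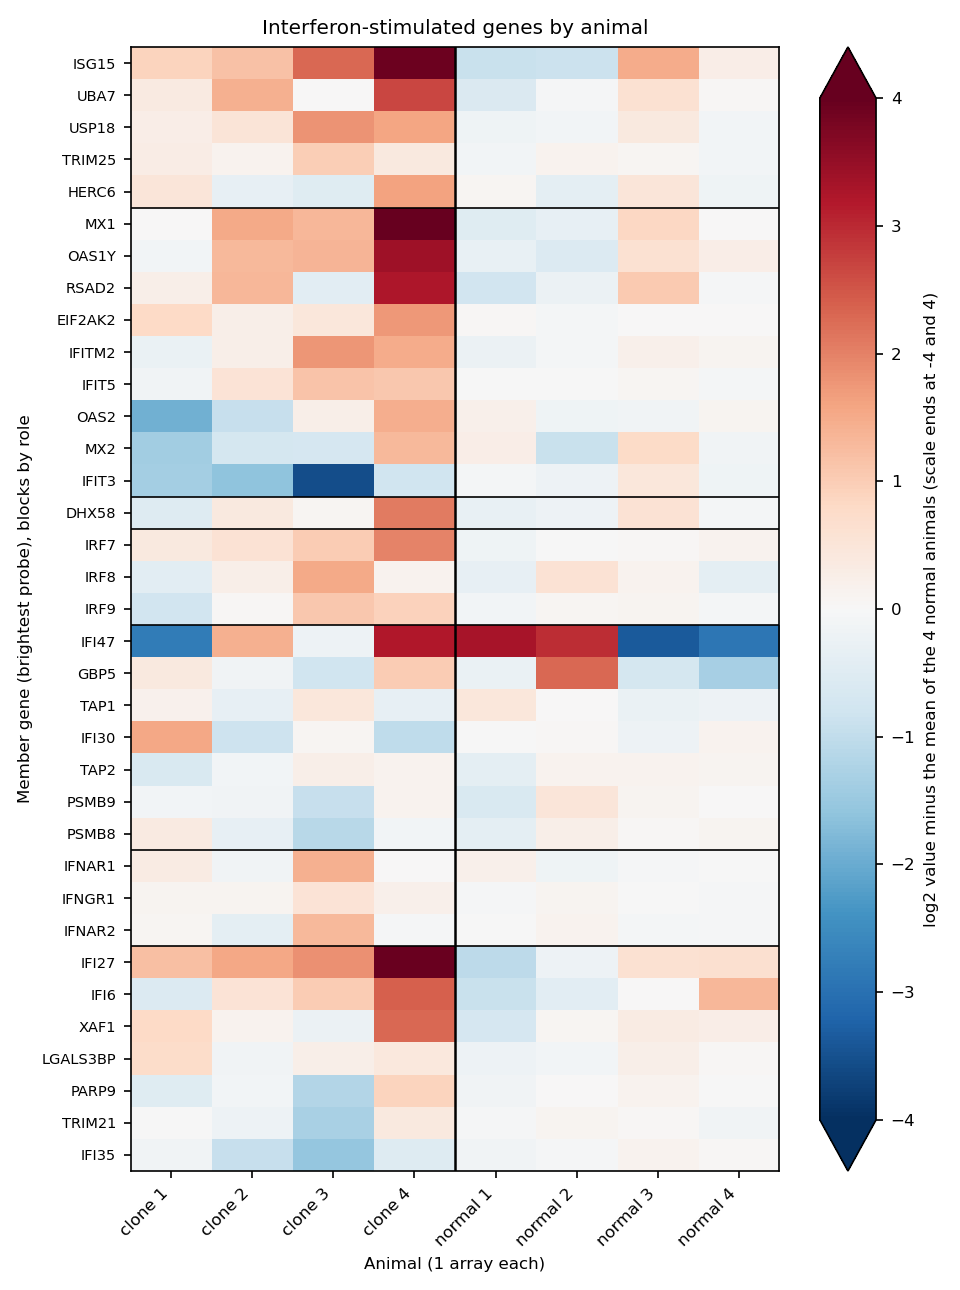
Each row is a measured member, in blocks by role, and each column an animal; colour gives the log2 value minus the mean of the 4 normal calves, with the scale ending at -4 and 4. The darkest red cells are ISG15, MX1 and IFI27 in clone 4, and the darkest blue cell among the antiviral effectors is IFIT3 in clone 3.

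The ISG15 system had all 5 members measured, and all 5 differences were positive, with a median of 1.03. ISG15, the ubiquitin-like protein that is attached to other proteins during an interferon response, had log2 values of 0.49, 0.78, 1.88 and 3.53 in clones 1 to 4 and of -1.28, -1.27, 1.08 and -0.14 in normal calves 1 to 4. Clone 4 was highest, and the groups overlapped only because normal calf 3 lay above clones 1 and 2. The difference was 2.07 (SE 0.76, adjusted p = 0.291 in limma), with a 95% interval from 0.35 to 3.80. The second ISG15 probe gave 2.10. USP18, the protease that removes ISG15 and dampens signalling at the type I receptor, had values of -3.23, -2.95, -1.69 and -1.91 in clones and of -3.64, -3.60, -3.08 and -3.59 in normal calves. Clones 3 and 4 were the high animals here, and clone 1 lay below normal calf 3. The USP18 difference was 1.03 (SE 0.37, adjusted p = 0.277 in limma), and it was 0.0467 with normexp background correction and centring on the 75th percentile.

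UBA7, the enzyme that activates ISG15 for conjugation, had values of 0.84, 1.92, 0.50 and 3.15 in clones and of -0.10, 0.43, 1.08 and 0.51 in normal calves. Clone 4 again stood highest and clones 1 and 3 lay within the range of the normal calves. The difference was 1.12 (SE 0.56, adjusted p = 0.443 in limma), and without clone 4 it was 0.60. The ligase genes HERC6 and TRIM25 had smaller differences of 0.32 and 0.46, with clone 4 highest for HERC6 and clone 3 highest for TRIM25.

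Of 20 antiviral effectors, 9 were measured, with 6 positive and 3 negative differences and a median of 0.80. MX1, a dynamin-like GTPase that traps viral nucleocapsids, had values of 0.07, 1.57, 1.39 and 4.03 in clones and of -0.43, -0.28, 0.88 and 0.07 in normal calves. Clone 4 exceeded every other animal by more than 2 log2 units, and clone 1 was within the normal range. The difference was 1.71 (SE 0.75, adjusted p = 0.378 in limma), and without clone 4 it was 0.95. Its other probes gave 1.66 and 1.29. MX2, the related GTPase, had values of -5.90, -5.20, -5.19 and -3.20 in clones and of -4.26, -5.40, -3.74 and -4.64 in normal calves. Its difference of -0.36 (SE 0.58) had the opposite sign from MX1 although clone 4 and normal calf 3 were again the highest of their groups. The sign turned to 0.18 with array weights.

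OAS1Y, an enzyme that makes the 2-5A signal for RNA decay, had values of 1.92, 3.32, 3.40 and 5.42 in clones and of 1.73, 1.47, 2.63 and 2.30 in normal calves. Clones 2 to 4 lay above all normal calves and clone 1 within their range. The difference was 1.48 (SE 0.66, adjusted p = 0.386 in limma), and without clone 4 it was 0.84. OAS2, a second enzyme of this kind, had values of -6.51, -5.50, -4.35 and -3.12 in clones and of -4.37, -4.75, -4.72 and -4.48 in normal calves. The clones spread on both sides of the tight normal group, with a difference of -0.29 (SE 0.63), and without clone 1 the difference was 0.26. OAS1X had 1 probe, which was well above background only in normal calf 1, at -2.64; the other 7 animals lay between -8.66 and -8.12.

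RSAD2, also called viperin, which makes a chain-terminating nucleotide, had values of -2.12, -1.03, -2.77 and 0.90 in clones and of -3.11, -2.60, -1.30 and -2.39 in normal calves. Only clones 2 and 4 lay above all normal calves. The difference was 1.09 (SE 0.76, adjusted p = 0.591 in limma), and without clone 4 it was 0.38. EIF2AK2, the kinase PKR that halts translation on binding double-stranded RNA, had values of 0.21, -0.35, -0.15 and 1.13 in clones and of -0.54, -0.69, -0.58 and -0.58 in normal calves. Every clone lay above every normal calf, and clone 4 was again highest. The difference was 0.81 (SE 0.31, adjusted p = 0.313 in limma), and without clone 4 it was 0.50.

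The IFIT genes went in different directions. IFIT3, a tetratricopeptide protein that works in complexes with other IFIT proteins on viral RNA, had values of -4.47, -4.72, -6.66 and -3.91 in clones and of -3.18, -3.32, -2.67 and -3.28 in normal calves. All clones lay below all normal calves, and clone 3, where the probe was not well above background, was lowest. The difference was -1.83 (SE 0.53, adjusted p = 0.212 in limma), and its second probe gave -1.42 with no overlap either. The IFIT3 difference was -1.26 without clone 3 and -0.64 with normexp and quantile normalization. IFIT5, which binds RNA as a single protein, had values of 0.43, 1.13, 1.70 and 1.66 in clones and of 0.57, 0.57, 0.66 and 0.50 in normal calves. Clones 2 to 4 lay above the normal calves and clone 1 below them, with a difference of 0.66 (SE 0.29, adjusted p = 0.376 in limma). IFITM2, a membrane protein that hinders virus entry, differed by 0.80, with clones 3 and 4 the highest animals.

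**Figure D2:**
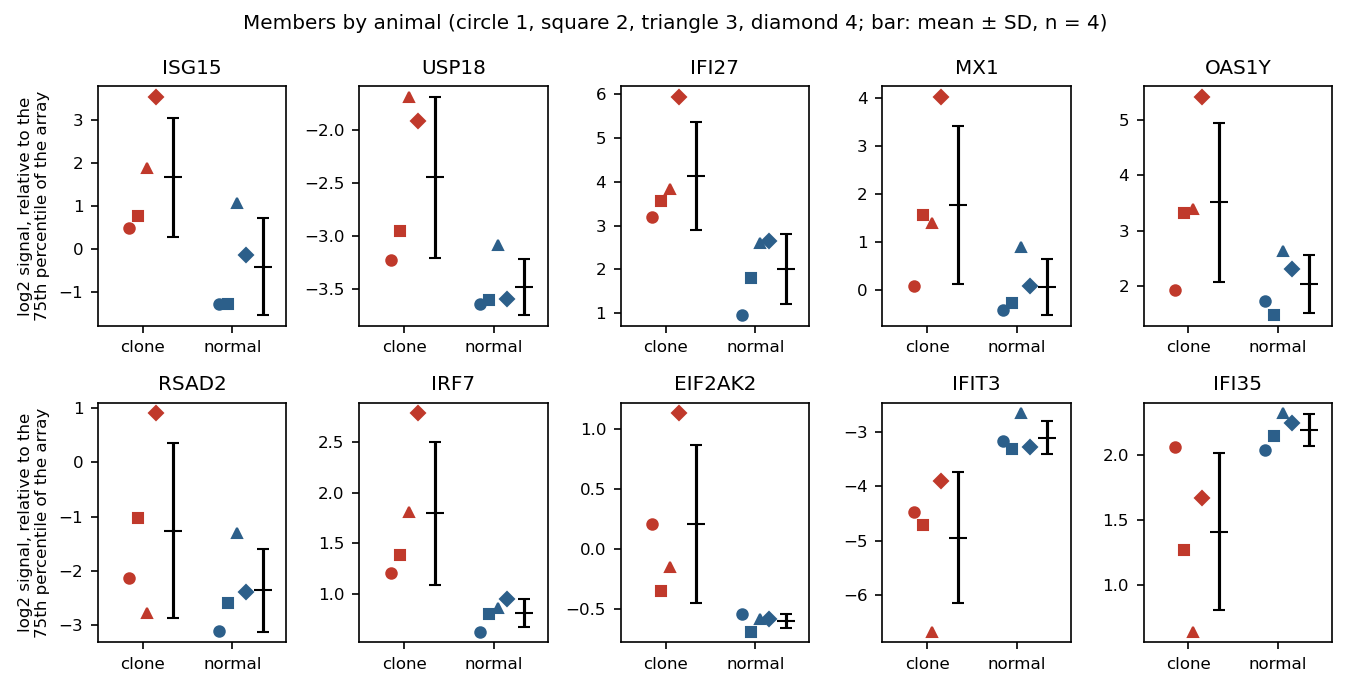
Log2 signal relative to the 75th percentile of the array for 10 members, one panel each with its own axis; red points are clones, blue points normal calves, the symbol gives the animal number and the bar the mean ± SD (n = 4). Clone 4 is the top point for ISG15, IFI27, MX1, OAS1Y, RSAD2, IRF7 and EIF2AK2, whereas all clones lie below the normal calves for IFIT3.

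Among the transcription factors 3 of 6 were measured, all with positive differences and a median of 0.36. IRF7, the factor that amplifies type I interferon production, had values of 1.21, 1.38, 1.81 and 2.79 in clones and of 0.63, 0.80, 0.86 and 0.95 in normal calves. The groups did not overlap, and the lowest clone was above the highest normal calf. The difference was 0.99 (SE 0.33, adjusted p = 0.255 in limma), and the second probe gave 1.01, also without overlap. IRF9, the DNA-binding part of the complex that acts below the type I receptor, differed by 0.31, but its other 2 probes gave -0.03 and -0.06. IRF8, a factor of myeloid cells, differed by 0.36 and was highest in clone 3. The 1 measured RNA sensor, DHX58, which modulates the sensing of viral RNA, differed by 0.51 with clone 4 highest.

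Among 7 measured members of the heterogeneous group of other induced genes, 4 differences were positive and 3 negative. IFI27, a small mitochondrial protein strongly induced by type I interferon, had the largest difference of all members. Its values were 3.21, 3.56, 3.84 and 5.94 in clones and 0.96, 1.79, 2.60 and 2.66 in normal calves. Every clone lay above every normal calf, with a difference of 2.14 (SE 0.63, adjusted p = 0.214 in limma) and a 95% interval from 0.70 to 3.57. Its other probes gave 2.30, also without overlap, and 2.31, where clone 1 at -2.76 lay below normal calves 2 and 4 at -2.43 and -1.58. IFI6, a related protein, had values of 2.40, 3.51, 3.98 and 5.33 in clones and of 2.05, 2.52, 2.97 and 4.27 in normal calves. The groups overlapped, with clone 4 highest and normal calf 4 second, and the difference was 0.85 (SE 0.66, adjusted p = 0.638 in limma). Without clone 4 the IFI6 difference was 0.34.

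IFI35, an interferon-induced leucine zipper protein, had values of 2.06, 1.27, 0.64 and 1.68 in clones and of 2.04, 2.15, 2.32 and 2.25 in normal calves. Clone 1 lay just above the lowest normal calf and the other clones lay below all of them. The difference was -0.78 (SE 0.29, adjusted p = 0.307 in limma), and on its second probe, at -0.84, all clones lay below all normal calves. PARP9 and TRIM21, an ADP-ribosyltransferase and a cytosolic antibody receptor, had differences of -0.22 and -0.29, and clone 3 was the lowest animal for both. Without clone 3 these differences were 0.10 and 0.0522.

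**Figure D3:**
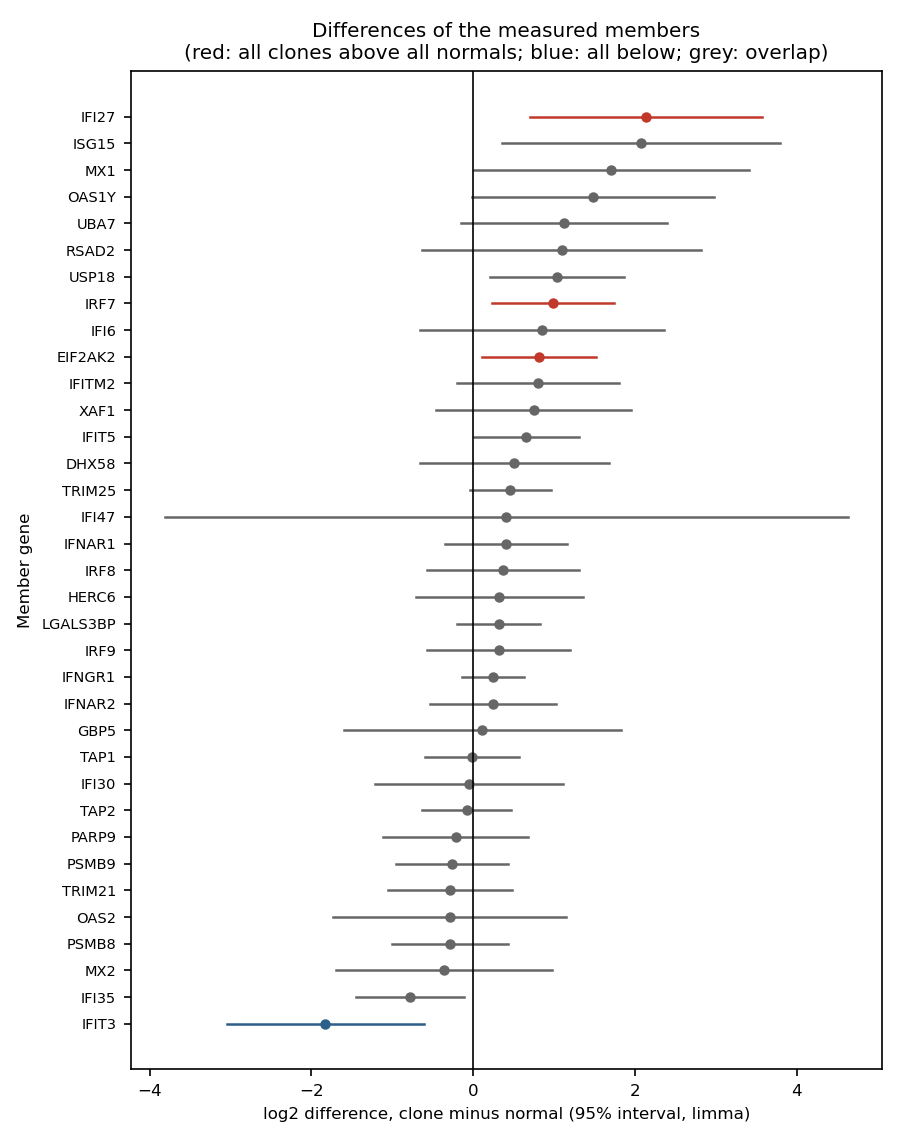
Log2 difference (clone minus normal) of the 35 measured members with the 95% interval from limma; red marks members where all clones lie above all normal calves, blue where all lie below, and grey where the groups overlap. IFI27, IRF7 and EIF2AK2 are red and IFIT3 is blue, and the intervals of most members cross 0.

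The antigen processing and guanylate-binding group had 7 of 8 genes measured, 2 with positive and 5 with negative differences, and a median of -0.05. PSMB8 and PSMB9, catalytic subunits of the immunoproteasome, differed by -0.29 and -0.26, and clone 3 was the lowest animal for both. Without clone 3 the differences were -0.0194 and -0.0401. TAP2, a subunit of the peptide transporter, had values of 1.31, 1.80, 2.15 and 2.07 in clones and of 1.52, 2.05, 2.05 and 2.04 in normal calves. These ranges overlapped almost wholly, with a difference of -0.08 (SE 0.24). The 95% interval, from -0.63 to 0.46, leaves room for a change of either sign.

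IFI30, a lysosomal thiol reductase of antigen presenting cells, had values of 4.47, 2.11, 3.00 and 1.93 in clones and of 2.93, 2.99, 2.73 and 3.08 in normal calves. Clone 1 was far above, and clones 2 and 4 below, a tight normal group, and the mean difference was -0.05 (SE 0.51). IFI30 was called lower in limma with array weights, at -0.84 (adjusted p = 0.0205), and without clones 1 and 3, at -0.91 (adjusted p = 0.00658); over its alternatives with 1 animal left out it ran from -0.58 to 0.26. In the same animals the mean over 7 measured macrophage markers of 10 was 2.33, 1.62, 3.01 and 1.43 in clones and 3.01 to 3.45 in normal calves. All 7 macrophage differences were negative, with a median of -1.21, and the part of this in the IFI30 values was not tested. In bulk tissue fewer cells of a type and less RNA per cell cannot be told apart. IFI47, an interferon-inducible GTPase, split both groups, with values of -4.42, -0.20, -1.85 and 1.56 in clones and of 1.67, 1.30, -5.00 and -4.53 in normal calves, and its SE of 1.85 was the widest of the members.

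The receptor genes IFNAR1, IFNAR2 and IFNGR1 were measured and IFNGR2 had no matched probe. IFNAR1 had values of -3.05, -3.50, -1.94 and -3.35 in clones and of -3.16, -3.52, -3.40 and -3.36 in normal calves. IFNAR2 had values of 0.49, 0.04, 1.72 and 0.37 in clones and of 0.40, 0.56, 0.34 and 0.38 in normal calves. Clone 3 was the high animal for both, and the differences were 0.40 and 0.24, with adjusted p-values of 0.659 and 0.816 in limma. Without clone 3 they were 0.0649 and -0.12. IFNGR1, the ligand-binding chain for type II interferon, differed by 0.24, while its other 2 probes both gave -0.34, so its probes gave no common direction.

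Genes with more than 1 kept probe gave a check within the array. In 18 of 20 such members all probes had the same sign, and IRF9 and IFNGR1 were the exceptions.

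**Figure D4:**
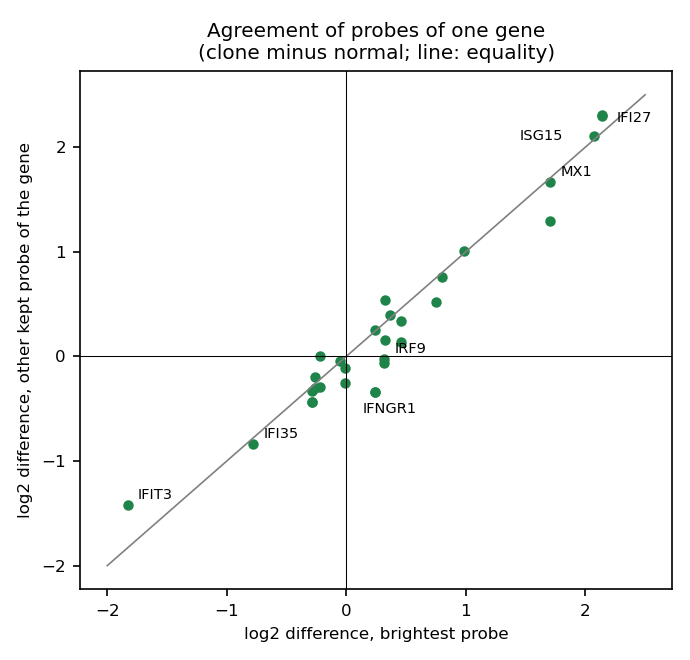
Log2 difference (clone minus normal) of the brightest probe of a member on the horizontal axis and of each further kept probe of the same gene on the vertical axis; the line marks equality. Most points lie near the line, among them ISG15 at 2.07 and 2.10, and IFNGR1 lies at 0.24 and -0.34.

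The members differed more between clones than between normal calves. The SD was larger in clones for 33 of 35 members, or 94.3%, against 91.1% of all genes, so this is near the share over the array. The median SD of the members was 0.857 in clones and 0.275 in normal calves, where all genes had 0.534 and 0.157.

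Much of the spread lay in clone 4. It was the highest of all 8 animals for 16 of 35 members, or 45.7%, against 14.2% of all genes, and its median difference from the normal mean was 1.08. The same median was 0.07, 0.11 and 0.24 in clones 1, 2 and 3. Clone 2, whose array was most like that of clone 4, was the highest animal for 0 of the 35, against 988 of all 9867 genes. Clone 1 was lowest of all animals for 8 members, among them MX2, OAS2, IFIT5, IRF9 and IFITM2, but at 22.9% against 23.3% of all genes this is near the share over the array.

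Clone 3 was highest for 10 members, or 28.6%, which is near the 26.4% of all genes. They were the 3 receptors, USP18, IFIT5, IFITM2, IRF8, IRF9, TRIM25 and TAP2. It was lowest for 7, or 20.0% against 29.0% of all genes, namely IFIT3, IFI35, HERC6, PARP9, TRIM21, PSMB8 and PSMB9.

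The healthy calves were not alike either. Normal calf 3 was the highest of its group for 17 members, or 48.6%, against 25.0% of all genes, and normal calf 1 was the lowest of its group for 20, or 57.1%, against 28.9%. For 11 members clone 4 led the clones and normal calf 3 led the normal calves, which is 31.4% of members and 6.33% of all genes. These were ISG15, MX1, MX2, IFIT3, OAS1Y, RSAD2, DHX58, HERC6, XAF1, PARP9 and UBA7. In ISG15, clone 4 exceeded the next clone by 1.65 and normal calf 3 the next normal calf by 1.22, and in RSAD2 the gaps were 1.92 and 1.09. The list therefore included IFIT3, MX2 and PARP9, whose group differences were negative. These shares were computed after the values were seen and are descriptions with no test.

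**Figure D5:**
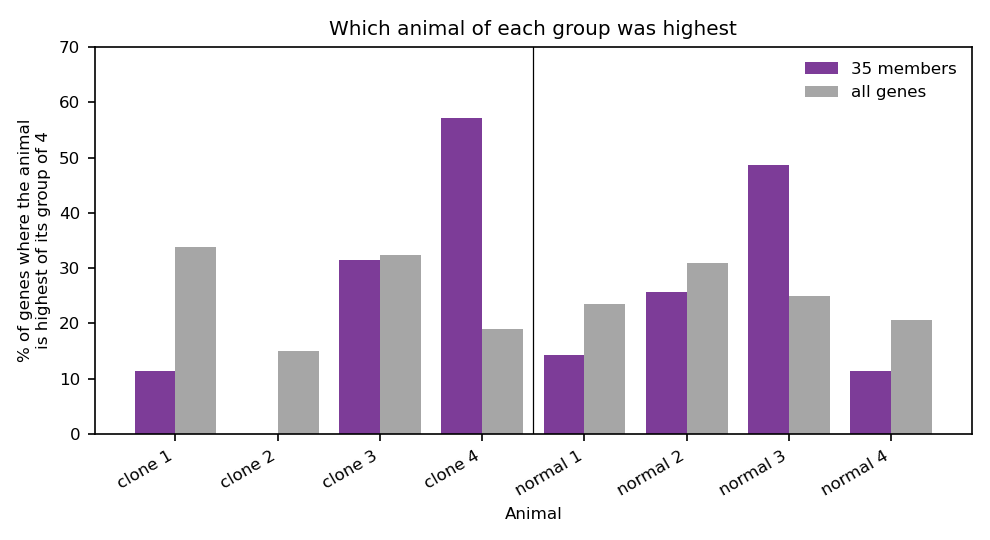
Percentage of genes for which each animal was the highest of the 4 in its group, for the 35 members (purple) and for all 9867 genes (grey). Clone 4 reached 57.1% of members against 18.9% of all genes, and normal calf 3 reached 48.6% against 25.0%.

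Upstream of the receptors, 12 of 23 interferon and inducer genes were measured, 9 with positive and 3 with negative differences. In limma 0 passed the adjusted threshold. At an unadjusted p under 0.05, met by 6.37% of all genes as higher and 6.58% as lower, there were 0 higher and 1 lower. That gene was IRF5, a factor of toll-like receptor signalling, with 1.81, 1.17, 1.83 and 1.44 in clones, 2.13 to 2.56 in normal calves and a difference of -0.71 (adjusted p = 0.215 in limma). All clones lay below all normal calves. IFNAC, the 1 interferon gene measured, was well above background in all 4 normal calves and in 1 clone. Its difference was -0.50 (SE 0.25, adjusted p = 0.449 in limma). It met the filter through the normal calves alone, so the filter favoured this direction and the value is only a description. The probes of IFNG and IFNW1, a type II and a type I interferon, were below the filter: IFNG was well above background in 1 normal calf and IFNW1 in 0 animals.

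Of 15 genes of signalling below the receptors 10 were measured, 8 with positive and 2 with negative differences. Again 0 passed the adjusted threshold in limma. IL10RB, the receptor chain shared by type III interferons and the cytokine IL-10, had values of 1.54, 1.62, 1.64 and 1.40 in clones and of 0.64 to 0.96 in normal calves. These groups did not overlap, and the difference was 0.72 (SE 0.16, adjusted p = 0.136 in limma). PTPN2, a phosphatase that acts on JAK kinases, differed by 0.57, while PTPN6, a phosphatase of blood cells, differed by -0.68, both without overlap. Of the 10 genes, 2 had all clones above all normal calves and 1 had all clones below, against 5.05% and 4.78% of all genes.

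Of 48 other interferon-induced genes 26 were measured, 12 with positive and 14 with negative differences and a median of -0.04. In limma 0 passed the adjusted threshold. At an unadjusted p under 0.05 there were 2 higher and 2 lower of the 26, against 6.37% and 6.58% of all genes. LY6E, a surface protein induced by interferon, had values of 0.14, -0.44, -0.61 and 0.00430 in clones and of -2.03 to -1.26 in normal calves. The groups were apart, and its difference of 1.35 (SE 0.25, adjusted p = 0.0907 in limma) had the smallest adjusted p of the 3 pathway lists. CMTR1, which methylates the mRNA cap, differed by 0.57, PSMB10, the third immunoproteasome subunit, by -0.49, and TRIM38, a regulator of innate signalling, by -0.74.

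Markers of other cells were read beside these values. The mean over the 10 T and NK cell markers ran from -0.76 to -0.38 in clones and from -0.19 to 0.43 in normal calves. Its members were uneven: CD8A differed by -2.45 and GNLY by -2.05, CD3D by -0.0260 and CD4 by 0.0433, and GZMB by 1.25. Of 8 measured neutrophil markers 6 had negative differences, while LTF differed by 1.57 and MPO by 0.46. For 3 of the 8 all clones lay below all normal calves, against 4.78% of all genes. All 5 measured ciliated cell markers had negative differences. Of 5 measured endothelial markers 4 were negative and 1 positive, with a median of -0.26, and CA4 of capillaries was the lowest at -2.60. The 6 lung epithelial markers split into 3 positive and 3 negative, with a median of -0.03, and SCGB1A1 of club cells was the lowest at -1.81. Of these markers 0 passed the adjusted threshold in limma. Of 6 plasmacytoid dendritic cell markers, the type known for high interferon output, only TCF4 was measured, at -0.15. The part of cell composition in the members' values was not tested.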

How the data were processed

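Lung RNA of 4 cloned and 4 normal calves was measured with 1 array per animal, with groups read from the titles. Per the file headers, the deposited processed intensity of each spot was background-subtracted by Agilent Feature Extraction; the submitters' processing notes name version 10.7. The same program set the deposited flags for spots well above background. The authors' deposited value table held log2 values. Its columns correlated with log2 processed signal at 0.999 or more, and all had a 75th percentile of 10.54 and medians of 7.89, so its scale is log2 with no gene centring, while the sources used here do not give the step that equalised the columns. It was used only as an alternative, and its differences nearly repeated those of quantile normalization. IFIT3 differed by -1.76 and USP18 by 1.09 in both.

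Control and outlier spots were left out, the 75th percentile of each array was subtracted from its log2 signal, and probes well above background on at least 4 of 8 arrays were kept, 35636 of 43653. Accessions were matched without versions to RefSeq names on ARS-UCD2.0, which named 20741 kept probes. The array design uses the older build Btau_3.1, so no coordinates are given. The test was that of limma 3.58.1, run in R 4.3.3 (lmFit and eBayes, 2-sided, group as the only term). It was also run on simulated data with the same spread in both groups. The clones here spread more than the normal calves, so that run does not cover this setting. The number of 4 animals per group limits the precision.

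Members, gene lists and tests were chosen with earlier results of these data known. Values are given for ISG15, USP18, IFIT3, the receptors, members with an unadjusted p under 0.05 or no overlap, the 10 largest differences in each direction, and pathway genes with an unadjusted p under 0.05. The differences of HERC6, TRIM25, IFITM2, IRF8, IRF9 and DHX58 and the values of IFI47 are printed beside others of their role groups. The differences of IFI47, XAF1, LGALS3BP, TAP1 and GBP5 are not printed. The values of 1 pathway gene are not reported here. Alternatives were quantile normalization, median centring, normexp with offset 50, no filter or a filter on all 8 arrays, the authors' table, trend and robust settings, array weights, a replicate block, the mean of all probes, and each animal left out. Normexp used the median spot signal in place of the planned mean signal. Leaving out clones 1 and 3 together was added after seeing the data. Same-numbered clone and normal animals had deviations that correlated at 0.0915, 0.0991, -0.20 and -0.0987, so the numbers do not pair them.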

Additional observations from a re-analysis of the deposited data

Results flagged for a closer look

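In 3 of 50 groups of 4 animals 1 animal lay far from the others. Chance alone gives about 1 in 20 such groups when the groups are unrelated. Here the genes share the same animals and many were chosen by their values, so that rate cannot be used to judge the count. USP18 was -3.08 in normal calf 3, against -3.64 to -3.59 in the other normal calves. TAP2 was 1.52 in normal calf 1, against 2.04 to 2.06 in the others. OAS1X, below the filter, was -2.64 in normal calf 1, against -8.66 to -8.38 in the others.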

How the results depend on the processing

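The median of the members stayed positive under all 20 alternatives, from 0.26 to 0.51 with 1 animal left out. The trend and robust settings and the replicate block could not move it. They left the members' differences unchanged, with a median of 0.36. Quantile normalization and the authors' table gave 0.33 each and are nearly the same alternative. At an adjusted p under 0.05 (limma), array weights called 9 members higher and 3 lower. Leaving out clones 1 and 3 called 8 and 3. Both directions together made 34.3% and 31.4% of the members, where 31.9% and 32.5% of all genes were called. Higher calls alone covered 15.6% and 16.2% of all genes, and lower calls 16.4% and 16.3%. Leaving out 1 animal gave 0 to 1 higher and 0 lower. At an unadjusted p, 7 members were higher, but 4 with normexp and 75th percentile centring, 13 with array weights, 12 without clones 1 and 3, and 3 to 10 with 1 animal left out (3 without clone 4, normal calf 1 or normal calf 2). The 2 lower became 1 under that normexp setting and 1 to 2 with 1 animal left out. With the replicate number as a block, 1 member was lower at an unadjusted p, and 0 were called at the adjusted threshold. The 3 members without overlap that were higher became 5 with median centring, 5 with normexp and quantile normalization, 11 without clones 1 and 3, and 3 to 9 with 1 animal left out (9 without clone 1). The 1 lower became 2 with quantile normalization, with normexp and quantile normalization, with the authors' table and with the mean of all probes, 4 without clones 1 and 3, and 1 to 2 with 1 animal left out. Shares over all genes at an unadjusted p or without overlap were computed for the main fit only. With fewer animals in a group fewer values have to lie apart, so counts without overlap can rise for any set of genes.

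Of 24 members tracked, 15 kept their direction throughout, where the trend and robust settings and the replicate block could not turn a sign. Signs turned with array weights for MX2 (0.18), OAS2 (0.0971), PARP9 (0.29), TRIM21 (0.0605), IFNAR1 (-0.0147) and IFNAR2 (-0.17). They turned without clones 1 and 3 for MX2 (0.31), OAS2 (0.27), PARP9 (0.40), TRIM21 (0.0922), TAP2 (0.0184), IFNAR1 (-0.0610) and IFNAR2 (-0.21). With normexp and 75th percentile centring, IFI30 was 0.10, TAP2 0.0118 and IFNAR1 -0.37, while the median of all kept probes moved to -0.34; with normexp and quantile normalization OAS2 was 0.0395. The mean of all probes gave IFNGR1 -0.15. With 1 animal left out, OAS2 ran from -0.88 (without clone 4) to 0.26 (without clone 1), IFI30 from -0.58 (without clone 1) to 0.26 (without clone 4), PARP9 from -0.59 (without clone 4) to 0.10 (without clone 3), TRIM21 from -0.51 (without clone 4) to 0.0522 (without clone 3), TAP2 from -0.22 (without normal calf 1) to 0.0900 (without clone 1) and IFNAR2 from -0.12 (without clone 3) to 0.45 (without clone 2). The cause of these turns was not tested. Of the 35 members, 32 were well above background on all 8 arrays, so low signal limits IFIT3, OAS2 and GBP5.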

Other observations

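IFITM3 is an older name of the locus LOC282255, an interferon-induced transmembrane protein that was not counted as a member because its current symbol differs. Its brightest probe had log2 values of 5.79, 6.13, 6.30 and 7.29 in clones 1 to 4 and of 5.54, 5.47, 6.14 and 5.91 in normal calves 1 to 4. Clone 4 was again highest and normal calf 3 the highest normal calf. The difference was 0.61 (SE 0.33, adjusted p = 0.484 in limma), and the second probe gave 0.56.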
